A study of Macaca mulatta with 21 samples.

Results

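ORMES23 is a male rhesus macaque embryonic stem cell line derived from a blastocyst fertilized in vitro, and it was compared with skin fibroblasts grown from a biopsy of an adult female aged 8 years. Each line was measured on 3 Affymetrix rhesus arrays (A, B and C, labelled biological replicates). The means compared came from 6 of the 21 arrays of the series, and all 21 entered the estimate of spread. All probe sets that carried 1 gene symbol and reached log2 5 on at least 3 of the 6 arrays were compared: 17445 of 52865 probe sets, which read 10697 of the 14133 named genes. The other arrays came from 2 lines cloned by somatic cell nuclear transfer (CRES-1, male, and CRES-3, female) and 3 induced pluripotent lines (RiPS1, male, RiPS2, female, and RiPS3, female). The labels give a donor age of 8 years for RiPS3, as for the fibroblasts, and an older donor for RiPS2. They give no donor age for the other pluripotent lines.

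Per the labels, both lines grew on mitotically inactivated mouse embryonic fibroblast feeders, ORMES23 in DMEM/F12 with 15% serum and the skin fibroblasts in DMEM with 10% serum. Undifferentiated colonies of ORMES23 were picked by hand, and the fibroblasts were trypsinized. Each line is a single derivation from a single animal. Cell type, sex, donor, age, medium and harvest therefore cannot be told apart. The p-values rest on the spread between arrays of the same line, pooled over all 7 lines of the series. For genes that varied more among the fibroblast arrays than within the other lines, pooling makes the SE too small and the p-value too low.

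Embryonic stem cells keep the capacity to form all tissues of the embryo through a network of transcription factors around OCT4 (POU5F1), SOX2 and NANOG. They grow as tightly packed epithelial colonies and divide rapidly. Dermal fibroblasts are mesenchymal cells that build and remodel the connective tissue of the skin through collagens, proteoglycans and matrix proteases, and they keep a HOX code that records their place in the body.

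The tested markers listed for both labelled cell types lay on the side of their labels. The marker lists were chosen with earlier results of these data known. A wider pluripotency list described below had 17 higher and 3 lower of 25 tested. NANOG and CD9, which are on it but not among the markers, were brighter in the fibroblasts (-0.73, not called, and -2.22). All 7 tested pluripotency markers (of 12 listed, 8 with a probe set) were higher in ORMES23, with a median log2 difference of 7.54. All 8 averaged under log2 5 in the fibroblasts, so those tested passed the filter through ORMES23 and had to be brighter there. The filter left out the pluripotency marker ZFP42 and the fibroblast marker TWIST2, which averaged 4.05 in ORMES23 and 4.58 in the fibroblasts. Of the 9 tested fibroblast markers, 8 were lower in ORMES23, and VIM was bright in both lines, at 13.60, 13.27 and 13.46 in ORMES23 and 14.62, 13.94 and 14.17 in the fibroblasts. The 2 tested markers each of keratinocytes (KRT10 and TP63) and of melanocytes (MITF and MLANA) did not pass the test, with differences between -0.57 and 0.17. The RNA came from whole cultures, in which more cells of a type and more RNA per cell cannot be told apart. Values under log2 5 lie near background. When the dimmer line averaged under 5, the fold is printed as a lower bound counted from log2 5.

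Array A stood apart from B and C in both lines. Over the compared probe sets, ORMES23 B and C correlated at 0.995, and A correlated with them at 0.970 and 0.966. Among the fibroblasts, B and C correlated at 0.983 and A at 0.940 and 0.964, while arrays of different lines correlated at 0.691 to 0.750. The median SD over 3 arrays was log2 0.156 in ORMES23 and 0.223 in the fibroblasts, the highest of the 7 lines. ORMES23 A differed by log2 1 or more from the mean of B and C in 493 genes, and fibroblast A did so in 874 genes, 595 of which were called between the lines.

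A gene was called higher or lower in ORMES23 when the difference reached 2-fold with an adjusted p under 0.05 in limma. Of the 17445 probe sets, 5783 were called (33.1%), with 3191 higher (18.3%) and 2592 lower (14.9%). With each gene read from its brightest probe set, 3571 of 10697 genes were called (33.4%), of which 1945 were higher (18.2%) and 1626 lower (15.2%). The median gene differed by -0.01 and the quartiles were -0.51 and 0.70. These shares are the background for every count of a gene list given here. A gene dim in one line passed the filter only through the other line and so had to be brighter there, and the counts describe the tested members alone. A difference of log2 3 or more was seen in 297 higher and 325 lower genes, and one of log2 5 or more in 59 and 67. The fibroblasts averaged under log2 5 for 411 of the higher genes, and ORMES23 did for 295 of the lower ones. Of 4267 genes with several probe sets, 61 had probe sets called in opposite directions. Differences of the named genes are those of the brightest probe set, and for 20 of the named genes called another probe set lay on the other side of 0. They are ATP8B3, COL18A1, COL5A2, CXCL12, DCN, FBN1, FGFR3, FRAS1, ITGA7, MAMU-A, MAMU-AG, MBD2, MYCN, NLGN4X, PLOD1, RBM47, SLC2A3, TET3, TFPI2 and TPM2. In further named genes another probe set lay on the same side of 0 but differed less or was not called.

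**Figure D1:**
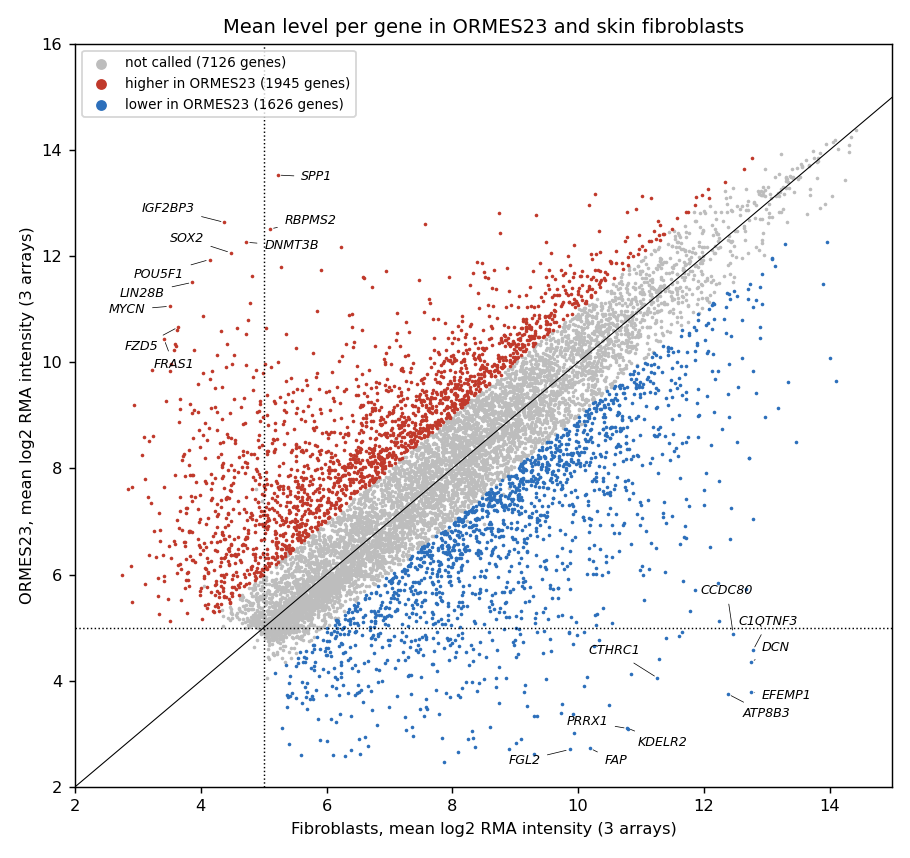
Mean log2 RMA intensity of each of 10697 genes over 3 fibroblast arrays (x axis) and 3 ORMES23 arrays (y axis). Red points are the 1945 genes called higher and blue points the 1626 called lower in ORMES23; dotted lines mark log2 5, and the named genes are the 10 largest rises and 10 largest falls.

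The largest rises joined pluripotency factors with genes for RNA binding, adhesion and secreted proteins. SPP1, the secreted phosphoprotein osteopontin, lay at 12.58, 13.96 and 14.05 in ORMES23 and 6.09, 4.38 and 5.18 in the fibroblasts. Every ORMES23 array exceeded every fibroblast array by at least 6.48 log2 units, and the difference was 8.31 ± 0.42 (SE; adjusted p = 1.1e-11; 317-fold). IGF2BP3, an oncofetal protein that binds mRNA, lay at 12.59, 12.66 and 12.67 in ORMES23 and 5.38, 3.93 and 3.81 in the fibroblasts. Its 3 ORMES23 arrays were nearly identical and fibroblast A was the brightest of the dim arrays, with a difference of 8.26 ± 0.26 (adjusted p = 1.97e-14). LIN28B, which blocks maturation of the let-7 microRNAs, lay at 11.25, 11.65 and 11.62 in ORMES23 and 3.74, 3.83 and 4.03 in the fibroblasts. The groups did not overlap, and the difference was 7.64 ± 0.13 (adjusted p = 1.02e-17; at least 91-fold).

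RBPMS2, another RNA-binding protein, differed by 7.41 ± 0.15 (170-fold). FRAS1, a matrix protein beneath epithelia, differed by 7.02 ± 0.25, although another of its 3 probe sets gave -0.07. FZD5, a receptor for WNT ligands, lay at 12.10, 10.02 and 9.88 in ORMES23 and 3.74, 3.75 and 3.43 in the fibroblasts. ORMES23 A was the brightest array, and all ORMES23 arrays lay above all fibroblast arrays (difference 7.02 ± 0.44). POU5F1, SOX2, MYCN and DNMT3B, the other 4 of the 10 largest rises, are described with their groups.

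The largest falls included genes of fibroblast matrix and mesenchymal identity. EFEMP1, the matrix glycoprotein fibulin-3, lay at 3.40, 3.84 and 4.10 in ORMES23 and 12.00, 13.41 and 12.85 in the fibroblasts. ORMES23 was near background on every array, and the difference was -8.97 ± 0.58 (adjusted p = 2.9e-10; at least 216-fold lower). DCN, the collagen-binding proteoglycan decorin, lay at 4.30, 4.46 and 4.29 in ORMES23 and 12.37, 12.98 and 12.90 in the fibroblasts. The groups were separated by at least 7.91 log2 units (difference -8.40 ± 0.30), although among its 5 probe sets the differences ran from -9.08 to 0.37. PRRX1, a homeobox factor of limb and dermal mesenchyme, lay at 3.05, 3.08 and 3.16 in ORMES23 and 11.33, 10.35 and 10.69 in the fibroblasts. It was near background in ORMES23 and bright in the fibroblasts (difference -7.69 ± 0.18; adjusted p = 6.52e-16).

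FAP, the fibroblast activation protease, lay at 2.71, 2.77 and 2.70 in ORMES23 and 9.87, 10.26 and 10.43 in the fibroblasts. It had the smallest SE of the 10 largest falls, with a difference of -7.46 ± 0.12 (adjusted p = 1.02e-17). CTHRC1, a secreted protein of collagen-producing cells, lay at 5.74, 3.29 and 3.13 in ORMES23 and 11.52, 10.86 and 11.42 in the fibroblasts, and FGL2, a fibrinogen-like secreted protein, lay at 2.59, 2.55 and 2.97 in ORMES23 and 7.91, 11.01 and 10.67 in the fibroblasts. In CTHRC1 the odd array was ORMES23 A, in FGL2 fibroblast A, and neither bridged the gap between the lines (differences -7.21 ± 0.46 and -7.16 ± 0.48). C1QTNF3 differed by -8.21 ± 0.16 and CCDC80, a matrix-associated protein, by -7.58 ± 0.25. KDELR2, a receptor that returns proteins to the endoplasmic reticulum, differed by -7.67 ± 0.17, and its 4 probe sets ran from -7.67 to -5.18. ATP8B3, a phospholipid-transporting ATPase, differed by -8.63 ± 0.31 on its brightest probe set and by 1.02 on the other.

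**Figure D2:**
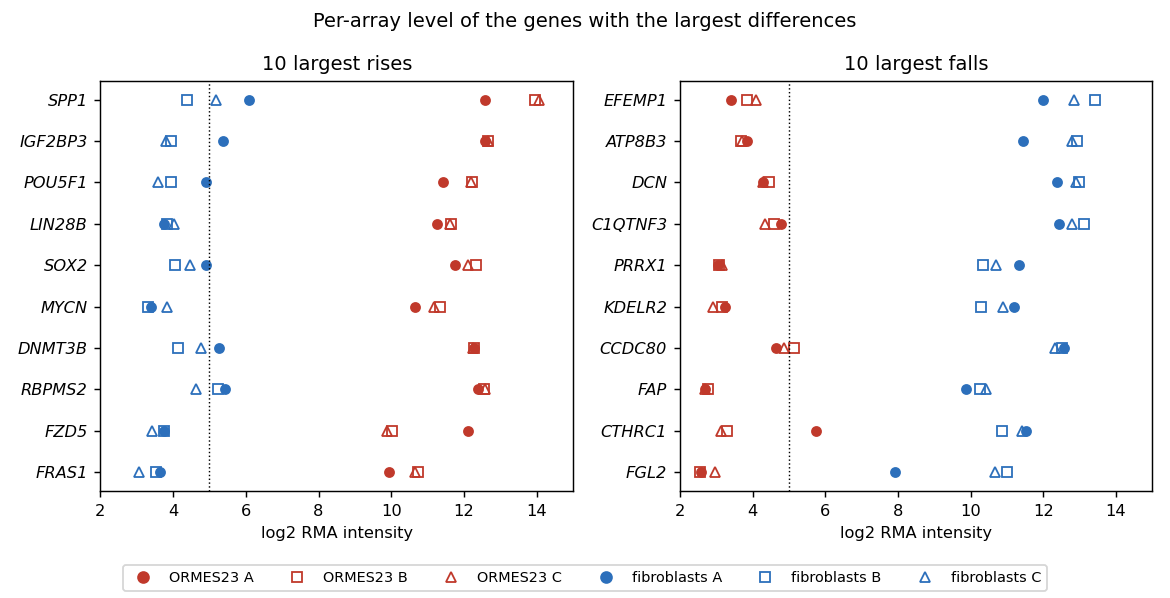
Log2 RMA intensity on each array for the 10 genes with the largest rises (left) and the 10 with the largest falls (right) from fibroblasts (blue) to ORMES23 (red); the marker shape gives array A, B or C and the dotted line marks log2 5. The 20 genes were picked among called genes in which the 3 red and the 3 blue markers do not overlap.

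Among pluripotency genes, 25 of 46 listed were tested (30 had a probe set), and 17 were higher, 3 lower and 5 not called, with a median of 3.40. POU5F1 lay at 11.41, 12.21 and 12.19 in ORMES23 and 4.90, 3.93 and 3.59 in the fibroblasts. The groups did not overlap, and the difference was 7.80 ± 0.26 (adjusted p = 3.88e-14; at least 123-fold). SOX2, the partner of OCT4 on many enhancers, lay at 11.75, 12.32 and 12.12 in ORMES23 and 4.90, 4.06 and 4.47 in the fibroblasts. All ORMES23 arrays lay above all fibroblast arrays by at least 6.85 log2 units, with a difference of 7.59 ± 0.19 (adjusted p = 9e-16). NANOG, the third core factor, behaved otherwise on its single probe set, which lay at 9.38, 9.07 and 9.22 in ORMES23 and 10.54, 9.65 and 9.67 in the fibroblasts. Every fibroblast array exceeded every ORMES23 array, the difference was -0.73 ± 0.26 (adjusted p = 0.0183), and the gene did not reach 2-fold. Whether this probe set reads NANOG alone or also a related sequence could not be checked without probe sequences.

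Other factors of the network were higher in ORMES23. MYCN, a MYC family factor of embryonic cells, differed by 7.55 ± 0.30 on its brightest probe set and -0.35 on the other. DPPA4, a chromatin-bound factor restricted to pluripotent and germ cells, lay at 8.51, 9.48 and 9.60 in ORMES23 and 2.97, 3.07 and 2.76 in the fibroblasts. SALL4, a zinc finger factor that sustains OCT4 expression, lay at 10.84, 10.72 and 10.84 in ORMES23 and 4.21, 4.41 and 5.63 in the fibroblasts. Both stood clear of the fibroblast arrays, with differences of 6.27 ± 0.23 and 6.05 ± 0.29. CD24, a surface glycoprotein of these cells, differed by 5.04 ± 0.35, FOXD3 by 4.70 ± 0.29 and NR5A2, a nuclear receptor that can drive OCT4 transcription, by 4.69 ± 0.47.

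The reprogramming factors KLF4 and MYC did not follow OCT4 and SOX2. KLF4 lay at 7.69, 7.51 and 7.51 in ORMES23 and 8.45, 9.11 and 9.29 in the fibroblasts. It was lower in ORMES23 with no overlap (-1.38 ± 0.36; adjusted p = 0.00246), as was KLF2 (-1.65 ± 0.20). MYC lay at 9.67, 10.18 and 10.33 in ORMES23 and 9.08, 9.46 and 9.68 in the fibroblasts, and its difference of 0.66 ± 0.24 did not reach 2-fold (adjusted p = 0.0232). The third lower member was CD9, a tetraspanin used as a stem cell surface marker, which lay at 10.66, 10.74 and 10.61 in ORMES23 and 13.06, 12.59 and 13.01 in the fibroblasts. CD9 was bright in both lines and brighter on every fibroblast array (-2.22 ± 0.13). The uncalled members besides NANOG were TFAP2C (0.19), KLF5 (-1.10), TBX3 (-0.95) and UTF1 (0.42). ZFP42, a classical stem cell zinc finger gene, failed the filter on low values with 7.49, 4.44 and 5.82 in ORMES23 and 4.00, 4.29 and 3.93 in the fibroblasts, and so did DPPA5, KLF17, FGF4 and CDH1.

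GDF3 and NODAL, ligands of the TGF-beta family active in early embryos, were higher but uneven. NODAL lay at 9.28, 7.38 and 7.23 in ORMES23 and 6.08, 6.30 and 5.67 in the fibroblasts, and GDF3 at 9.61, 6.96 and 6.73 in ORMES23 and 4.83, 3.71 and 3.64 in the fibroblasts. ORMES23 A was the brightest array in both genes (differences 1.95 ± 0.43 and 3.71 ± 0.63). Without ORMES23 A the differences were 1.29 and 2.79, both still called.

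**Figure D3:**
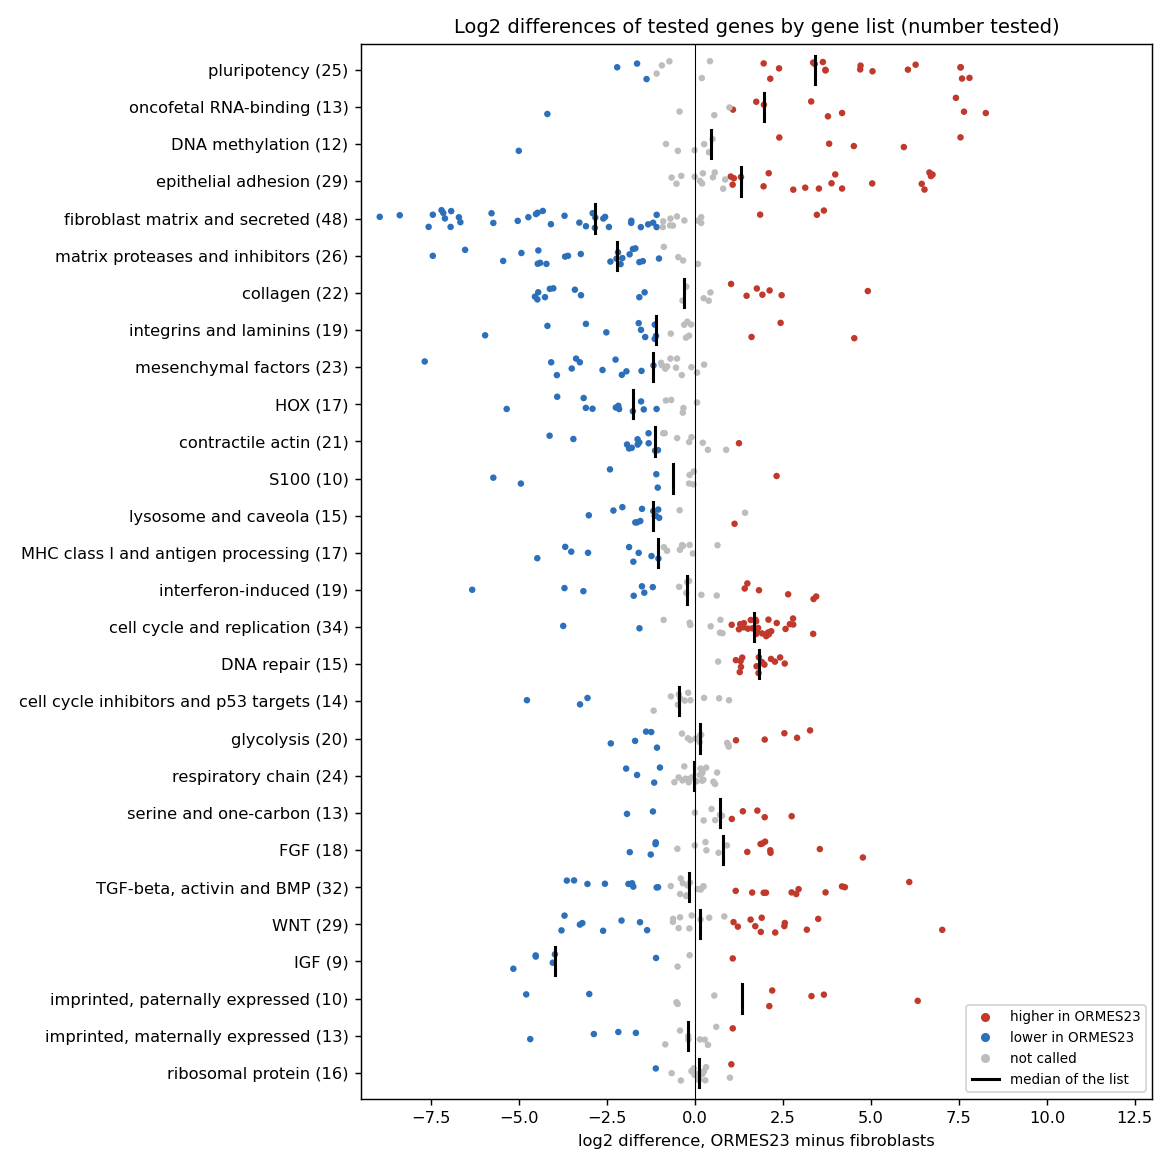
Log2 difference, ORMES23 minus fibroblasts, of the tested genes of 28 gene lists, with the number tested in parentheses. Red, blue and grey points are genes called higher, lower and not called, and black bars are list medians, which run from 3.40 for pluripotency to -3.99 for the IGF list.

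Of 17 genes on a list of oncofetal and other RNA-binding genes, 13 were tested, with 9 higher, 1 lower and 3 not called (median 1.95). Besides LIN28B, IGF2BP3 and RBPMS2, the larger rises were ESRP2, a splicing factor of epithelial cells (4.18 ± 0.20), RBM47 (3.77 ± 0.26) and IGF2BP1 (3.30 ± 0.28). MBNL2, a splicing factor of differentiated cells, was the lower member, at 5.95, 6.64 and 6.42 in ORMES23 and 10.00, 10.85 and 10.76 in the fibroblasts. No array of one line overlapped the other, and the difference was -4.20 ± 0.26. The median was 2.47 without fibroblast A and 1.71 without fibroblast B.

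DNA methylation genes had 12 of 18 listed tested, with 5 higher, 1 lower and 6 not called (median 0.44, which was 0.66 without fibroblast A and 0.29 without fibroblast C). DNMT3B, a de novo methyltransferase, lay at 12.27, 12.29 and 12.24 in ORMES23 and 5.26, 4.14 and 4.77 in the fibroblasts. Its ORMES23 arrays spanned 0.05 log2 units, and the difference was 7.54 ± 0.19 (adjusted p = 1.32e-15; at least 154-fold). DNMT3A, the other de novo enzyme, differed by 4.51 ± 0.29, whereas the maintenance enzyme DNMT1 (0.39 ± 0.20) and its cofactor UHRF1 (0.26 ± 0.35) were not called. TET1, which oxidizes methylcytosine, lay at 10.87, 10.14 and 10.01 in ORMES23 and 4.12, 4.74 and 4.37 in the fibroblasts. It was near background in fibroblasts and bright in ORMES23 (5.93 ± 0.30), and TET3 differed by 2.39 ± 0.34. HELLS, a remodeler needed for methylation of repeats, differed by 3.81 ± 0.33. MBD2, a reader of methylated DNA, was lower on its brightest probe set (-5.02 ± 0.29), while another of its probe sets gave 5.25.

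Of 16 tested polycomb genes, which silence developmental genes through histone marks, 5 were called, a share near the 33.4% of all genes: 2 were higher and 3 lower (median -0.01). JARID2, the targeting subunit of PRC2, lay at 11.59, 11.98 and 12.03 in ORMES23 and 8.00, 8.85 and 8.56 in the fibroblasts. The lines were well separated (3.40 ± 0.18; 10.5-fold). PCGF6 was higher by 1.13 ± 0.13, while PCGF1 (-1.69 ± 0.14), CBX6 (-1.94 ± 0.14) and PHC2 (-1.94 ± 0.18) were lower. Without ORMES23 B the higher count was 4, and without ORMES23 C the lower count was 5.

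Matrix genes of fibroblasts were mostly lower in ORMES23. Of 61 listed, 48 were tested (50 had a probe set), and 35 were lower, 3 higher and 10 not called, with a median of -2.85. Among matrix proteins, 12 of 16 were lower. TNC, the matrix glycoprotein tenascin-C, lay at 5.05, 5.28 and 5.07 in ORMES23 and 11.65, 12.51 and 12.57 in the fibroblasts. TGFBI, a collagen-associated adhesion protein, lay at 5.76, 5.72 and 5.72 in ORMES23 and 12.40, 12.62 and 12.99 in the fibroblasts. Both were dim in ORMES23 and separated from the fibroblasts by at least 6.38 and 6.64 log2 units (-7.12 ± 0.36 and -6.94 ± 0.47). Among proteoglycans 5 of 6 were lower, including LUM (-6.72 ± 0.82) and ASPN (-6.68 ± 0.20), which organize collagen fibrils. VCAN, the large proteoglycan versican, was the uncalled member, with -0.52 ± 0.29.

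Among enzymes that modify and crosslink collagen, 7 of 10 were lower. LOX, which crosslinks collagen and elastin, lay at 5.14, 6.26 and 6.24 in ORMES23 and 11.15, 11.97 and 11.89 in the fibroblasts. Every fibroblast array exceeded every ORMES23 array by at least 4.88 log2 units (-5.79 ± 0.48; 55.3-fold lower). The higher members of the whole list were PLOD1, a lysyl hydroxylase (1.85 ± 0.12; its probe sets ran from -1.62 to 1.98), FBN2, a fibrillin of embryonic tissues (3.46 ± 0.62), and the chemokine CXCL12 (3.66 ± 0.49). FBN1, the fibrillin of adult tissues, was lower on its brightest probe set (-4.53 ± 0.48), and the probe sets ran up to 1.11. The brightest probe set of MFAP5, a microfibril protein, lay at 13.42, 13.44 and 13.56 in ORMES23 and 13.30, 13.39 and 13.21 in the fibroblasts. That probe set did not pass the test (0.17 ± 0.09), nor did another bright in both lines (0.19). The remaining MFAP5 probe sets averaged 3.91 and 2.89 in ORMES23, near background, and gave -6.49 and -7.09.

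Of 10 tested secreted members of the matrix list, 6 were lower, 1 was higher and 3 were not called. IL6, an inflammatory cytokine, lay at 3.63, 3.47 and 3.49 in ORMES23 and 8.92, 11.23 and 11.30 in the fibroblasts, and CXCL8, a neutrophil chemokine, at 3.93, 3.86 and 4.14 in ORMES23 and 5.37, 9.64 and 9.91 in the fibroblasts. Fibroblast A was the dimmest fibroblast array for both, yet brighter than every ORMES23 array (-6.95 ± 0.41 and -4.33 ± 0.71). Both genes varied far more among the fibroblast arrays than among the ORMES23 arrays, so these pooled SE understate their error. Without fibroblast A the differences were -7.74 and -5.80. GAS6, a ligand of TAM receptors, differed evenly by -3.29 ± 0.14.

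Of 28 listed collagens, 22 were tested, with 7 higher, 10 lower and 5 not called (median -0.31, which was -1.47 when probe sets were averaged per gene, -0.53 without fibroblast A and -0.10 without fibroblast B). COL1A2, a chain of the main collagen of skin, lay at 9.23, 9.95 and 9.74 in ORMES23 and 14.08, 14.11 and 14.13 in the fibroblasts. The fibroblast arrays spanned 0.05 log2 units and lay at least 4.13 above ORMES23 (-4.46 ± 0.54). COL1A1 (-3.42 ± 0.26), COL3A1 (-1.44 ± 0.17) and the COL6 chains COL6A1 (-4.03 ± 0.21), COL6A2 (-4.56 ± 0.21) and COL6A3 (-3.25 ± 0.49) were also lower. COL5A2 was the higher fibrillar member on its brightest probe set (1.02 ± 0.13), while its other probe sets gave 0.90, -4.895 and -5.55. It fell short of 2-fold without ORMES23 C (0.97), without fibroblast B (0.96) and without fibroblast C (0.95).

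By type, 1 of 7 tested fibrillar collagens was higher (COL5A2, on its brightest probe set) and 3 were lower. Of 12 microfibrillar and other collagens, 3 were higher and 7 lower, and the 3 tested basement membrane collagens were higher. The difference between types was not tested. COL4A5, a chain of the collagen sheet beneath epithelia, lay at 9.75, 9.84 and 9.61 in ORMES23 and 5.02, 4.81 and 4.64 in the fibroblasts. The lines did not overlap (4.91 ± 0.15; at least 26.6-fold), and COL18A1 (2.12 ± 0.14) and COL4A6 (1.75 ± 0.18) differed less. With probe sets averaged per gene, COL18A1 was at 0.91 and was not called. Among integrins and laminins, 19 of 25 were tested, with 3 higher, 10 lower and 6 not called (median -1.11). The higher members were LAMA1, the laminin chain of early embryonic basement membranes (4.52 ± 0.25), ITGA6, a laminin receptor chain (2.43 ± 0.22), and ITGA7 (1.60 ± 0.36). ITGA8 (-5.97 ± 0.28, against -0.25 on its other probe set) and the collagen receptor chain ITGA11 (-4.20 ± 0.28) were the largest falls.

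No tested matrix protease or inhibitor was higher: of 34 listed, 26 were tested, and 22 were lower and 4 not called (median -2.22). ADAM12, a metalloprotease of mesenchymal cells, lay at 3.31, 3.42 and 3.38 in ORMES23 and 9.64, 10.32 and 9.78 in the fibroblasts. MMP3, the protease stromelysin, lay at 3.15, 3.12 and 3.14 in ORMES23 and 9.42, 7.59 and 8.77 in the fibroblasts. ORMES23 was near background for both (-6.54 ± 0.23 and -5.46 ± 0.48). CTSK, a collagen-degrading cathepsin, differed by -4.46 ± 0.20, HTRA1, a secreted serine protease, by -4.41 ± 0.23, and the inhibitor TIMP1 by -3.70 ± 0.19. The other TIMP1 probe sets gave -0.77 and -0.44 and were not called. MMP1, the interstitial collagenase, lay at 3.87, 6.46 and 7.42 in ORMES23 and 10.35, 4.31 and 5.77 in the fibroblasts. Its arrays overlapped widely, with fibroblast A far above B and C, and it was not called (-0.89 ± 1.29).

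Many epithelial genes were higher in ORMES23. Of 38 listed, 29 were tested, with 18 higher, none lower and 11 not called (median 1.30). EPCAM, a surface adhesion molecule, lay at 10.89, 10.25 and 9.88 in ORMES23 and 3.52, 3.49 and 3.77 in the fibroblasts. DSP, the desmosome linker desmoplakin, lay at 10.53, 10.25 and 9.91 in ORMES23 and 3.45, 3.77 and 3.50 in the fibroblasts. Both were near background in fibroblasts (6.75 ± 0.22 and 6.66 ± 0.17). KRT19 (6.70 ± 0.23), the desmosomal cadherin DSC2 (6.44 ± 0.18), the tight junction protein CLDN6 (6.52 ± 0.19) and F11R (5.03 ± 0.31) were among the other higher members. CDH1, E-cadherin, lay at 4.39, 4.40 and 4.52 in ORMES23 and 4.90, 4.95 and 4.89 in the fibroblasts and was left out by the filter. Without ORMES23 A the median was 1.79, and without ORMES23 A or without fibroblast A 1 member was lower.

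Mesenchymal transcription factors and structural genes had 23 of 37 listed tested, with none higher, 12 lower and 11 not called (median -1.19). Besides PRRX1, the large falls were RUNX1 (-4.09 ± 0.30), EBF1 (-3.93 ± 0.24), FOXF2 (-3.51 ± 0.30), PRRX2 (-3.39 ± 0.16) and OSR2 (-3.28 ± 0.17). ZEB2, a repressor of epithelial genes, lay at 4.47, 5.50 and 5.22 in ORMES23 and 7.83, 7.56 and 7.71 in the fibroblasts, and ZEB1 at 6.76, 6.66 and 7.02 in ORMES23 and 8.45, 8.54 and 8.02 in the fibroblasts. Both were lower without overlap (-2.63 ± 0.32 and -1.53 ± 0.37), while SNAI1 (-0.95 ± 0.26) and TWIST1 (-0.97 ± 0.44) did not reach 2-fold. SNAI1 was called lower without ORMES23 B (-1.06), ORMES23 C (-1.0) or fibroblast C (-1.0), and TWIST1 without fibroblast B (-1.22).

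Contractile and actin-binding genes had 21 of 28 listed tested, with 1 higher, 12 lower and 8 not called (median -1.14). SYNPO2 (-4.14 ± 0.27), LMOD1, a nucleator of actin filaments (-3.46 ± 0.35), and TPM2 (-1.94 ± 0.24) were lower. PDLIM7 was the higher member (1.25 ± 0.16), and 2 members were higher without ORMES23 A or without fibroblast B. The smooth muscle markers ACTG2, MYH11, CNN1 and TAGLN were not called, with a median of -0.33 (0.18 without ORMES23 A, 0.13 without fibroblast B and -0.68 without fibroblast A). Of these, 1 was higher without ORMES23 A or fibroblast B, 1 was lower without ORMES23 B or C, and 2 were lower without fibroblast A. ACTG2 lay at 11.44, 12.48 and 12.58 in ORMES23 and 9.90, 12.54 and 11.43 in the fibroblasts. The lowest array of each line was its array A, and the difference was 0.88 ± 0.43.

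No tested HOX gene was higher in ORMES23. Of 39 listed, 26 had a probe set, 17 were tested, 12 were lower and 5 not called (median -1.77). Since ORMES23 averaged under log2 5 for 15 of the 26, members passed the filter largely through the fibroblasts. HOXA9 lay at 3.92, 3.92 and 3.52 in ORMES23 and 8.90, 9.22 and 9.31 in the fibroblasts, HOXC6 at 5.52, 5.87 and 5.86 in ORMES23 and 9.52, 9.93 and 9.57 in the fibroblasts and HOXB6 at 4.87, 5.24 and 4.93 in ORMES23 and 8.04, 8.26 and 8.06 in the fibroblasts. The lines did not overlap in any of these (-5.36 ± 0.27, -3.92 ± 0.20 and -3.11 ± 0.14). All 5 tested HOXA genes, 3 of 6 HOXB genes, 3 of 5 HOXD genes and the single tested HOXC gene were lower. HOXB13, a posterior member, was at log2 5.71 to 6.01 in both lines (0.05 ± 0.12).

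Genes of the cell cycle and DNA replication were higher in ORMES23. All but 9 of 43 listed genes were tested, and of these 34, 25 were higher, 2 lower and 7 not called, with a median of 1.67. All 12 tested licensing genes, which load and fire the replicative helicase, were higher. MCM3, a helicase subunit, lay at 11.53, 11.72 and 11.81 in ORMES23 and 9.56, 7.15 and 8.29 in the fibroblasts. The ORMES23 arrays spanned 0.28 log2 units and the fibroblast arrays 2.42 (3.35 ± 0.35). MCM2 (2.78 ± 0.32), GMNN (2.69 ± 0.23) and TOP2A (2.79 ± 0.42) followed. CCNE1, the cyclin of S phase entry, lay at 9.86, 9.58 and 9.70 in ORMES23 and 7.65, 7.55 and 7.45 in the fibroblasts, and here the fibroblast arrays agreed closely (2.16 ± 0.13; 4.47-fold).

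The spread among fibroblast arrays bears on the whole list. Its mean was log2 9.78, 9.69 and 9.75 on ORMES23 A, B and C and 9.18, 7.64 and 8.46 on the fibroblast arrays, so that fibroblast A was nearest to ORMES23. Without fibroblast B, 20 members were higher and 3 lower (median 1.12), and 10 of the licensing genes were higher. Without fibroblast A, 27 members were higher and 2 lower (median 2.11). On the 6 arrays of both lines alone, 22 were higher and 2 lower. CCNB1, a mitotic cyclin, lay at 11.94, 11.91 and 11.99 in ORMES23 and 11.65, 8.75 and 10.24 in the fibroblasts. The lines did not overlap, but the difference of 1.73 ± 0.42 became 1.00 without fibroblast B and lost its call. The lower members were the D-type cyclins CCND3, which lay at 7.15, 6.84 and 6.94 in ORMES23 and 10.04, 11.11 and 11.04 in the fibroblasts, and CCND1 (-1.58 ± 0.52). CCND3 was lower without overlap (-3.75 ± 0.22), while CCND1 lost its call without ORMES23 A (-1.10).

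DNA repair genes were higher in 14 of 15 tested (of 20 listed), with a median of 1.80. Without fibroblast B, 11 were higher (median 1.44), and without fibroblast A, 14 were higher (median 1.92). MSH6, a mismatch repair protein, averaged 11.06 ± 0.07 in ORMES23 and 8.65 ± 0.03 in the fibroblasts (SD, n = 3 each). The ORMES23 arrays spanned 0.14 log2 units and the fibroblast arrays 0.06 (2.41 ± 0.12; adjusted p = 6.13e-12). BARD1 (2.55 ± 0.28) and BLM (2.27 ± 0.19), which act in homologous recombination, and PMS2 (1.81 ± 0.14) were also higher, and FANCB was the uncalled member (0.65 ± 0.20). The list means again followed the cell cycle list among fibroblast arrays, at 6.75, 5.75 and 6.14 on A, B and C, against 8.11, 7.79 and 7.87 in ORMES23.

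Cell cycle inhibitors and p53 targets had 14 of 18 listed tested, with 3 lower and 11 not called (median -0.45). CDKN1A, the p21 inhibitor, lay at 6.65, 7.07 and 7.02 in ORMES23 and 11.43, 12.12 and 11.54 in the fibroblasts. The fibroblasts were at least 4.36 log2 units brighter (-4.78 ± 0.27; adjusted p = 3.96e-11; 27.5-fold lower). CDKN2C (-3.27 ± 0.27) and GDF15 (-3.06 ± 0.51) were the other lower members, and CDKN2A was not called (-1.18 ± 0.51), but was called lower without fibroblast B (-1.43), with the replicate block, on the 6 arrays of both lines alone and with centred arrays (-1.24), each giving 4 lower members. 1 member was higher without ORMES23 C or without fibroblast A. In the BCL2 family, 10 of 18 listed were tested, with 2 higher, 1 lower and 7 not called (median 0.17, or 0.09 without ORMES23 B). PMAIP1, the death activator NOXA, lay at 11.63, 11.78 and 11.74 in ORMES23 and 6.82, 7.07 and 6.93 in the fibroblasts. It was higher by 4.78 ± 0.16 (27.4-fold), and BIK by 1.79 ± 0.30. BCL2L11 was lower by 1.40 and lost its call without fibroblast B (-0.98). Of 6 tested telomere genes, DKC1, a telomerase component, was higher (1.14 ± 0.15), TINF2 was lower (-1.20 ± 0.14), and TERT, the catalytic subunit, was near background at 5.64, 5.47 and 5.53 in ORMES23 and 5.28, 4.94 and 4.55 in the fibroblasts. Without ORMES23 A or without fibroblast B, 2 telomere genes were higher.

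In the FGF pathway, which sustains primate stem cell cultures, 18 of 26 listed genes were tested, with 8 higher, 4 lower and 6 not called (median 0.78). The ligand FGF2 lay at 6.65, 7.77 and 7.96 in ORMES23 and 7.85, 10.19 and 9.93 in the fibroblasts. Fibroblast A lay just below ORMES23 C, and the other fibroblast arrays were the brightest. FGF2 was lower in ORMES23 (-1.86 ± 0.47), whereas FGF19 was higher (2.14 ± 0.33). Among receptors FGFR2 lay at 9.56, 10.24 and 10.19 in ORMES23 and 5.63, 5.41 and 4.65 in the fibroblasts. FGFR2 (4.77 ± 0.28) and FGFR3 (3.54 ± 0.40) were higher, and FGFR1 was not called (0.32 ± 0.39). The feedback genes SPRY2 (1.99 ± 0.23), SPRY4 (1.90 ± 0.37) and ETV4 (2.13 ± 0.21), which FGF signalling induces, were higher, while DUSP4 (-1.13 ± 0.17) and ETV1 (-1.26 ± 0.14) were lower. The ligand FGF5 was also lower (-1.12 ± 0.18), a call lost without fibroblast A (-0.87).

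The TGF-beta superfamily was mixed: 11 of 32 tested (of 45 listed) were higher, 9 lower and 12 not called (median -0.18, or -0.03 without fibroblast A). On the BMP side 7 of 13 were higher and 1 lower. BMP4, a ligand that drives differentiation of these cells, lay at 7.91, 10.56 and 10.62 in ORMES23 and 5.36, 5.60 and 5.37 in the fibroblasts, and BAMBI, a decoy receptor that BMP signalling induces, at 9.60, 11.13 and 11.24 in ORMES23 and 4.53, 4.70 and 4.48 in the fibroblasts. ORMES23 A was the dimmest ORMES23 array in both, and neither gene overlapped between the lines (4.26 ± 0.48 and 6.09 ± 0.30). Of 7 genes of the TGF-beta branch, 4 were lower and none higher. They were LTBP1 (-3.06 ± 0.27) and LTBP2 (-1.76 ± 0.18), which store latent TGF-beta in matrix, the ligand TGFB3 (-2.57 ± 0.14) and the coreceptor TGFBR3 (-1.90 ± 0.38). On the nodal and activin side, the receptor ACVR2B was higher (2.74 ± 0.22), and the activin subunit INHBA (-3.44 ± 0.32) and the activin antagonist FSTL3 (-3.65 ± 0.15) were lower.

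WNT pathway genes had 29 of 42 listed tested, with 12 higher, 8 lower and 9 not called (median 0.15, which was 0.00 without ORMES23 A, 0.08 without fibroblast C and 0.23 without ORMES23 B or fibroblast B). Receptors were higher in 6 of 11, led by FZD5 and ROR1 (3.17 ± 0.20), while FZD1 was lower (-3.21 ± 0.20). The other FZD1 probe sets ran from -1.69 to -0.38. Among ligands, WNT5A lay at 7.80, 9.17 and 8.84 in ORMES23 and 10.58, 11.64 and 11.45 in the fibroblasts. It was lower without overlap (-2.62 ± 0.40), as was WNT4 (-3.28 ± 0.17), and WNT3 was higher (1.71 ± 0.41). TCF7L1, a repressor that tempers WNT signals in stem cells, was higher by 2.28 ± 0.15. The antagonists DKK1 (-3.80 ± 0.89) and DKK3 (-3.71 ± 0.31) were lower, and WIF1 was higher (3.50 ± 0.30).

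All 6 tested IGF binding proteins were lower in ORMES23. Of the 12 IGF genes listed, 9 were tested, with 1 higher, 6 lower and 2 not called (median -3.99, or -1.82 when probe sets were averaged). IGFBP7 lay at 6.47, 7.70 and 7.61 in ORMES23 and 11.69, 12.95 and 12.64 in the fibroblasts, IGFBP3 at 7.06, 8.70 and 8.81 in ORMES23 and 12.62, 12.60 and 12.96 in the fibroblasts and IGFBP5 at 4.75, 5.00 and 5.04 in ORMES23 and 6.63, 11.18 and 10.57 in the fibroblasts. No arrays overlapped between lines, but fibroblast A was far below B and C for IGFBP5 (-5.17 ± 0.39, -4.54 ± 0.42 and -4.53 ± 0.70). The other IGFBP7 probe sets differed far less, from -1.12 to -0.81. IGF2R, which clears IGF2, was the higher member (1.07 ± 0.17) and lost its call without fibroblast A (0.86). IGFBP2 lost its call (-1.11 ± 0.33) without ORMES23 C (-1.0), fibroblast B (-0.87) or fibroblast C (-0.86).

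Glycolytic genes had 20 of 29 listed tested, with 5 higher, 5 lower and 10 not called (median 0.14, or 0.03 without ORMES23 A), and the higher count was 8 without ORMES23 B. SLC2A1, the basal glucose transporter, lay at 11.03, 10.40 and 10.31 in ORMES23 and 7.01, 7.30 and 7.62 in the fibroblasts. It was higher without overlap (3.27 ± 0.20; 9.62-fold), and so was SLC2A3 on its brightest probe set (2.90 ± 0.15, against -0.24 on another). PFKP (-2.40 ± 0.35) and ENO2 (-1.71 ± 0.15) were lower, while GAPDH (0.17 ± 0.10) and LDHA (0.01 ± 0.18) were not called. In the respiratory chain, 20 of 24 tested genes (of 36 listed) were not called, and 4 were lower (median -0.02, or 0.11 without fibroblast A). They were COX7A1, a muscle-type subunit of cytochrome oxidase (-1.96 ± 0.12), SDHA (-1.65 ± 0.13), SDHC (-1.17 ± 0.25) and SDHB (-1.0 ± 0.11). SDHB lost its call without ORMES23 B (-0.95), fibroblast A (-0.91) or fibroblast C (-0.98).

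Of 13 tested serine and one-carbon genes (of 21 listed), 5 were higher, 2 lower and 6 not called (median 0.70). GLDC, the glycine decarboxylase, lay at 9.19, 9.81 and 9.60 in ORMES23 and 9.08, 5.43 and 5.88 in the fibroblasts. Fibroblast A came within 0.12 log2 units of the lowest ORMES23 array, and the difference was 2.74 ± 0.61, or 3.88 without it. ALDH1L2, a mitochondrial folate enzyme, was lower (-1.94 ± 0.16). SHMT1 was higher (1.98 ± 0.29) and its mitochondrial counterpart SHMT2 lower (-1.20 ± 0.27), a call lost without ORMES23 A (-0.99), where 1 member was lower.

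Class I antigen presentation was lower in 9 of 17 tested genes (of 26 listed) and higher in none (median -1.05). MAMU-AG, a nonclassical class I gene, lay at 7.91, 7.83 and 7.53 in ORMES23 and 12.12, 12.47 and 12.15 in the fibroblasts. The lines did not overlap (-4.49 ± 0.21). TAPBP (-3.52 ± 0.18), PSMB8 (-3.05 ± 0.14) and NLRC5, the transactivator of class I genes (-1.76 ± 0.15), were also lower, and B2M was bright in both lines (-0.38 ± 0.10). The other TAPBP probe set gave -0.72 and was not called. Class I genes are near-identical copies, and their probe sets can share signal. MAMU-A was lower on its brightest probe set (-3.70 ± 0.15), and its other probe set gave 4.01.

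Interferon-induced genes had 6 higher, 7 lower and 6 not called of 19 tested (37 listed, median -0.23, or -0.07 without fibroblast A). MX1, an antiviral GTPase, lay at 8.33, 8.63 and 8.65 in ORMES23 and 5.13, 5.13 and 5.26 in the fibroblasts, and IFITM1, a membrane protein that restricts virus entry, at 13.01, 12.67 and 12.64 in ORMES23 and 8.50, 10.13 and 9.37 in the fibroblasts. Both were higher without overlap (3.37 ± 0.18 and 3.44 ± 0.33). IFI16, a nuclear DNA sensor, lay at 3.71, 3.52 and 2.94 in ORMES23 and 10.11, 9.37 and 9.70 in the fibroblasts. It was near background in ORMES23 (-6.34 ± 0.31), and IFI35 (-3.18 ± 0.14) and GBP1 (-3.72 ± 0.16) were lower too. Immediate early and stress genes had 17 of 28 listed tested, with 2 higher, 6 lower and 9 not called (median -0.29, or -0.55 without fibroblast A). DUSP1, a phosphatase induced by growth factors and stress, was lower (-2.67 ± 0.37), and EGR2 was higher (3.71 ± 0.75, against 0.19 on its other probe set). FOS lay at 10.72, 8.30 and 8.76 in ORMES23 and 6.69, 7.97 and 7.82 in the fibroblasts and lost its call (1.76 ± 0.75) when any 1 array but ORMES23 B was left out, with differences of 1.03 without ORMES23 A to 2.01 without ORMES23 C. The higher count was 1 in those fits, apart from that without fibroblast A.

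Lysosomal and caveolar genes were lower in 12 of 15 tested (of 25 listed) and higher in 1 (median -1.19). CTSZ (-3.03 ± 0.23), EHD2 (-2.33 ± 0.17) and LAMP2, a membrane protein of the lysosome (-1.70 ± 0.17), were lower, and NPC2, a cholesterol carrier, was higher (1.12 ± 0.10). Without ORMES23 A or without fibroblast B, 2 members were higher. Of 10 tested S100 genes, 5 were lower, 1 higher and 4 not called (median -0.62), with 3 lower without fibroblast A. S100A4, a calcium-binding protein of motile mesenchymal cells, lay at 6.96, 7.24 and 6.93 in ORMES23 and 13.84, 11.76 and 12.75 in the fibroblasts. It was lower by 5.74 and S100A6 by 4.96 on the log2 scale, while S100A1 was higher (2.31 ± 0.21). Of 16 tested ribosomal protein genes, 14 were not called, with RPL32 lower (-1.12 ± 0.28), RPS19 higher (1.03 ± 0.22) and a median of 0.10. RPS19 lost its call without ORMES23 A (0.68) and without fibroblast C (0.97), and 2 members were higher without ORMES23 B, ORMES23 C or fibroblast A.

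Imprinted genes are transcribed from 1 parental copy. Of 18 listed that are expressed from the paternal copy, 10 were tested, with 5 higher, 2 lower and 3 not called (median 1.33). MEST lay at 11.15, 11.08 and 11.11 in ORMES23 and 6.11, 3.43 and 4.81 in the fibroblasts, and PEG3, a zinc finger gene, at 8.01, 7.59 and 7.60 in ORMES23 and 4.08, 4.24 and 3.91 in the fibroblasts. Both were higher without overlap (6.33 ± 0.46 and 3.66 ± 0.31), as were DLK1 (3.31 ± 0.45), MAGEL2 (2.19 ± 0.35) and SNRPN (2.11 ± 0.12). DIRAS3, a growth-suppressing GTPase, lay at 3.91, 3.72 and 4.03 in ORMES23 and 7.01, 9.86 and 9.21 in the fibroblasts. It was near background in ORMES23 (-4.80 ± 0.43), and SGCE was lower by 3.01 on the log2 scale. Of 13 tested genes expressed from the maternal copy (17 listed), 4 were lower, 8 not called and IGF2R higher (median -0.20, or -0.33 without fibroblast B). TFPI2 (-4.69 ± 0.55), ATP10A (-2.88 ± 0.28) and SLC22A18 (-2.19 ± 0.18) were lower, as was PHLDA2 (-1.69 ± 0.57), whose call was lost without ORMES23 A (-1.17). Among 6 tested germline genes (27 listed, 21 with a probe set), PRDM1 (2.23 ± 0.71) and NANOS1 (1.01 ± 0.27) were higher. Neither was called without ORMES23 A (1.21 and 0.87), and NANOS1 was not called without ORMES23 B (0.98), fibroblast A (0.87) or fibroblast B (0.77).

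The series concerns X inactivation, the silencing of 1 X chromosome in female cells. Of 396 tested X-linked genes, 157 were called (39.6%), of which 101 were higher (25.5%) and 56 lower (14.1%), with a median of 0.16. On the autosomes 18.0% of 10164 genes were higher and 15.2% lower, with a median of -0.01. Chromosomes 17 (28.7%) and 5 (24.3%) had shares of higher genes like that of the X, and the autosomal shares ran down to 13.1%. Of 14 tested genes reported to escape inactivation, 3 were higher (CTPS2, 1.24 ± 0.15; TXLNG, 1.17 ± 0.18; SMC1A, 1.14 ± 0.18), 2 lower and 9 not called. TXLNG lost its call without fibroblast A (0.99) and SMC1A without fibroblast B (0.92). The lower members were NLGN4X (-1.68 ± 0.17; its probe sets ran up to 2.07) and PNPLA4 (-1.25 ± 0.36), which was not called without ORMES23 C (-0.67). SRY, the Y-linked sex-determining gene, lay near background at 5.34, 5.64 and 5.44 in ORMES23 and 5.27, 5.47 and 5.03 in the fibroblasts. None of the 3 tested Y-linked genes was called, and XIST was not analysed here.

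Markers of early lineages were present in ORMES23 and uneven among its arrays. Of 9 tested endoderm markers (11 listed), 6 were higher and 3 not called, with a median of 3.06, or 2.03 without ORMES23 A. Their mean was 9.45, 7.46 and 6.97 on ORMES23 A, B and C and 5.47 to 5.70 on the fibroblast arrays. CER1, a secreted antagonist of nodal and BMP ligands, lay at 11.74, 7.59 and 7.19 in ORMES23 and 4.62, 5.17 and 4.20 in the fibroblasts. SOX17, an endoderm factor, lay at 10.55, 8.02 and 7.22 in ORMES23 and 4.17, 4.64 and 4.50 in the fibroblasts. In both, ORMES23 A was far above B and C, which were above all fibroblast arrays (4.17 ± 1.04 and 4.16 ± 0.86). Without ORMES23 A the differences were 2.72 and 3.19. GATA6 lay at 11.25, 8.17 and 6.90 in ORMES23 and 8.62, 9.09 and 9.41 in the fibroblasts, so that the fibroblast arrays fell between ORMES23 A and the other ORMES23 arrays, and it was not called (-0.26 ± 1.00).

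Of 9 tested mesoderm markers (11 listed), 6 were higher, 1 lower and 2 not called (median 1.43). EOMES, a T-box factor of the primitive streak, lay at 11.11, 9.34 and 9.12 in ORMES23 and 5.31, 4.61 and 4.71 in the fibroblasts, and GSC, an organizer homeobox gene, at 10.94, 6.85 and 6.52 in ORMES23 and 4.22, 4.65 and 4.19 in the fibroblasts. ORMES23 A was again the brightest (4.98 ± 0.59 and 3.75 ± 1.03), and without it the differences were 4.35 and 2.33. Over the 9 markers the mean level was 7.51, 7.75 and 7.42 on ORMES23 A, B and C, so array A did not stand apart over the list. MSX1 was the lower member (-2.89 ± 0.56). Of 4 tested neural markers, SOX3 (4.81 ± 0.32) and DCX (1.59 ± 0.29) were higher, and the median of 0.85 was 1.67 without ORMES23 A and 0.45 without ORMES23 B. Without fibroblast B, 1 neural marker was lower. PAX6, a neural factor, lay at 3.18, 6.65 and 6.94 in ORMES23 and 5.22, 5.64 and 5.60 in the fibroblasts. ORMES23 A was far below B and C, and the gene was not called (0.11 ± 0.90). Of 5 tested trophoblast markers, GATA3 was higher (3.67 ± 0.69), KRT7 (-4.19 ± 0.37) and TFAP2A (-2.35 ± 0.97) were lower, and the median of -1.54 was -0.61 without ORMES23 A. TFAP2A lay at 4.18, 8.37 and 8.45 in ORMES23 and 8.47, 9.72 and 9.87 in the fibroblasts and was not called without ORMES23 A (-0.94), fibroblast B (-2.17) or fibroblast C (-2.09). The part of differentiating cells in these values was not tested.

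**Figure D4:**
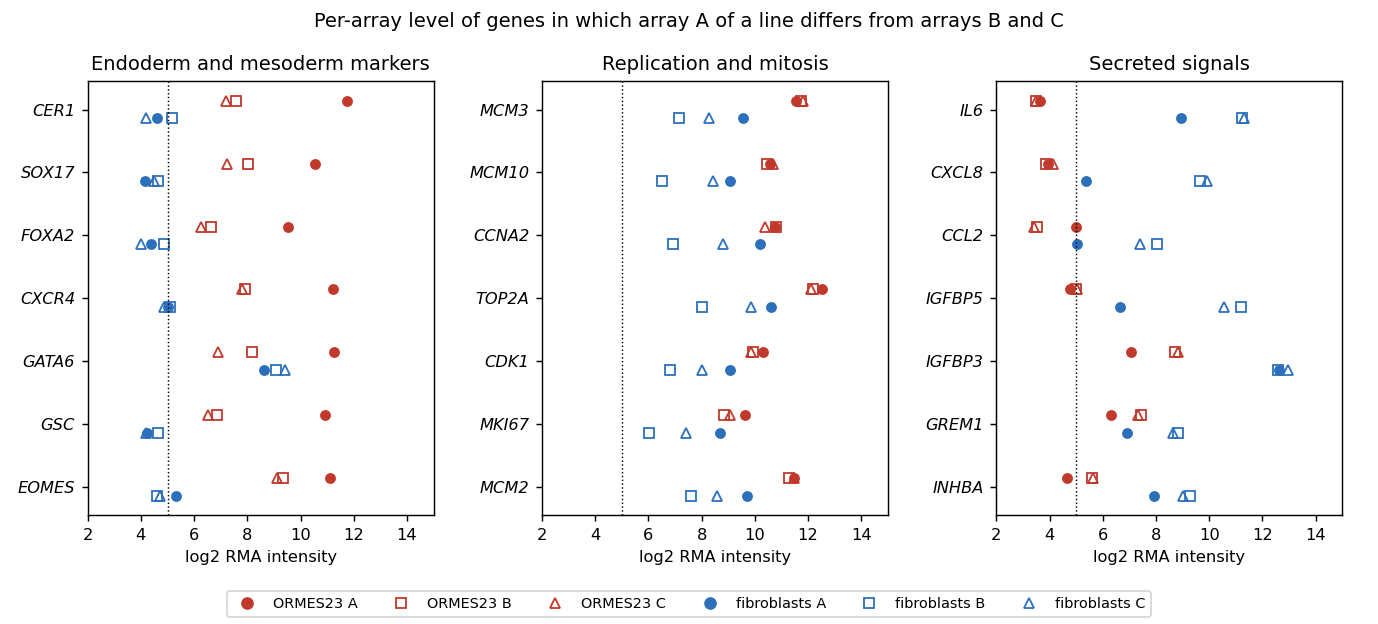
Log2 RMA intensity on each array for 7 endoderm or mesoderm markers, 7 replication and mitosis genes and 7 secreted signals in ORMES23 (red) and fibroblasts (blue); the marker shape gives array A, B or C and the dotted line marks log2 5. ORMES23 A is the highest red marker for all 7 genes on the left, and fibroblast A the highest blue marker for all 7 in the middle.

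Of 4 tested endothelial markers, 1 was higher, 1 lower and 2 were not called, and 1 of 2 tested immune markers was called, against 33.4% of all genes. PECAM1, an adhesion molecule of endothelial and blood cells, lay at 5.35, 5.03 and 5.36 in ORMES23 and 7.16, 8.30 and 8.32 in the fibroblasts. It was lower in ORMES23 (-2.68 ± 0.25). TEK, an angiopoietin receptor, was higher on its brightest probe set (4.64 ± 0.31, against 0.00 on the other), and CDH5 was near background in both lines (-0.17 ± 0.10). Without ORMES23 B or ORMES23 C, 2 endothelial markers were higher. Among the immune markers, CD68 was higher (1.68 ± 0.29) and CD14 was not called (-0.76 ± 0.13).

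ORMES23 was also set against the mean of the 5 other pluripotent lines, a contrast in which the fibroblast levels cancel, although their arrays enter the filter and the estimate of spread. It asked which of these genes set the embryo-derived line apart from cloned and induced lines. This contrast called 21 of the 10697 genes (0.196%). ORMES23 was the higher side in 11 of them and the lower side in 10, and 1247 genes had an unadjusted p under 0.05. Of the 21, 16 were also called against the fibroblasts. The count was 59 without ORMES23 A, 10 without ORMES23 B and 13 without ORMES23 C, and 25, 22 and 20 without fibroblast A, B and C. Among the 16, those with the smallest p were named, 5 in each direction. The largest difference on the higher side was left out by this rule. It was LOC695105 (2.29, adjusted p = 1.55e-05), which averaged 9.59 in ORMES23 and 9.46 in CRES-1 and was not called against the fibroblasts. Each line is 1 derivation, so the contrast speaks for ORMES23 and not for embryo-derived lines. The lines set against ORMES23 also differ in sex and, where it is given, in donor age, and the part of either was not tested.

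MAMU-AG averaged 7.76 ± 0.21 (SD, n = 3) in ORMES23 and 7.67 ± 0.48 in CRES-1, but 9.50 in RiPS1, 11.01 in RiPS2, 11.97 in CRES-3 and 12.06 in RiPS3. ORMES23 and CRES-1 stood together below the other lines, and the fibroblasts reached 12.25. The difference of ORMES23 from the other pluripotent lines was -2.69 ± 0.16 (SE; adjusted p = 1.77e-08). MAMU-A differed by -1.43 ± 0.12 (SE; adjusted p = 2.19e-06), with CRES-1 (7.19) again close to ORMES23 (7.31). With probe sets averaged per gene, the MAMU-A difference turned to 1.14. XG, an X-linked blood group gene, differed by -1.49 ± 0.16 (SE; adjusted p = 7.25e-05), GSTK1, a glutathione transferase, by -1.30 ± 0.16 (SE; adjusted p = 0.000269) and PEX7, a peroxisomal import receptor, by -1.09 ± 0.18 (SE; adjusted p = 0.00596). PEX7 did not reach 2-fold without ORMES23 B (-0.93) or without ORMES23 C (-0.85).

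ST6GAL2, a sialyltransferase, lay at 6.17, 6.24 and 5.59 on ORMES23 A, B and C and averaged between 3.48 and 4.33 in the other pluripotent lines. ORMES23 was the single line above log2 5, with a difference of 2.13 ± 0.34 (SE; adjusted p = 0.00464), and the call was lost without ORMES23 B (2.01). ROR1 averaged 8.36 ± 0.10 in ORMES23 and at most 7.59 in the other pluripotent lines (1.15 ± 0.15, adjusted p = 0.000644). DCBLD2 (1.10 ± 0.13, adjusted p = 0.000269) and CENPO, a centromere protein (1.12 ± 0.19, adjusted p = 0.00831), were also higher, and in both CRES-1 (9.15 and 7.06) lay nearest to ORMES23 (9.40 and 7.10). CENPO lost its call without ORMES23 C (1.08). PEG3 averaged 7.73 ± 0.24 in ORMES23, 6.88 to 7.35 in 4 pluripotent lines and 4.08 in RiPS1, near the fibroblast mean of 4.07. The difference was 1.29 ± 0.24 (SE; adjusted p = 0.0135), and it was not called without ORMES23 A (1.15), B (1.36) or C (1.36).

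**Figure D5:**
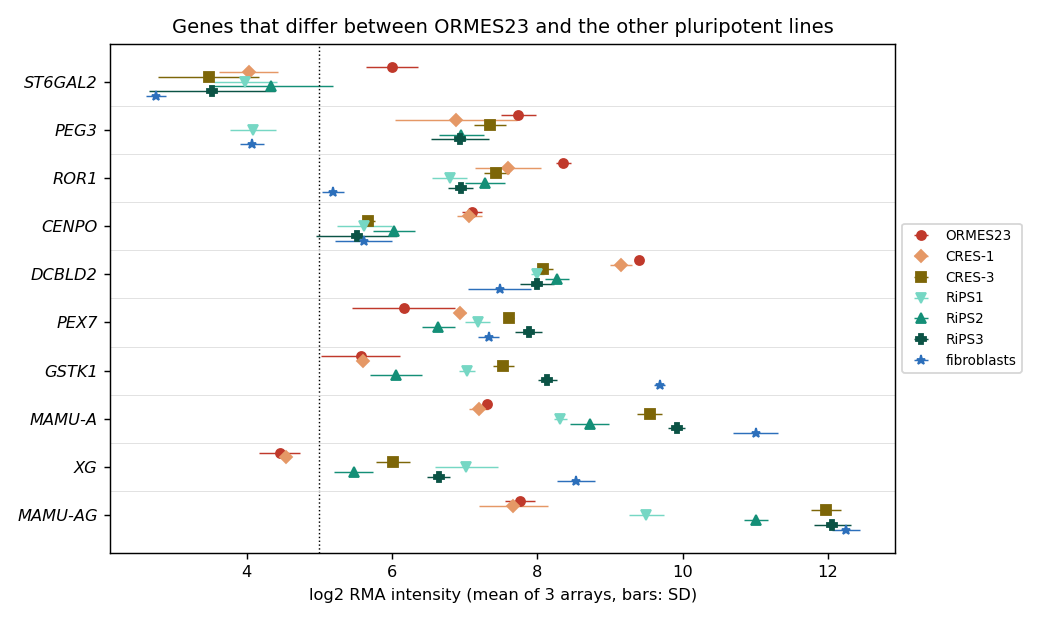
Mean log2 RMA intensity with SD over 3 arrays in each of the 7 lines for the 10 named genes that differed between ORMES23 and the other 5 pluripotent lines; the dotted line marks log2 5. ORMES23 and CRES-1 lie close together for MAMU-AG (7.76 and 7.67), and ST6GAL2 is above log2 5 in ORMES23 alone.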

How the data were processed

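The authors deposited log2 intensities, 1 per probe set and array. RMA, the robust multi-array method, is named in the submitters' processing notes, and its version is not given in the sources used here. Names came from the platform annotation. Of 52865 probe sets, 24969 carried 1 gene symbol, and 361 with several and 27535 with none were left out. Probe sets at log2 5 or more on at least 3 of the 6 arrays of ORMES23 and the fibroblasts were tested with limma 3.58.1 in R 4.3.3. The fit held 1 mean for each of 7 lines over 21 arrays (14 residual degrees of freedom), with Benjamini-Hochberg adjustment over the 17445 probe sets tested. Calls needed an adjusted p under 0.05 and a 2-fold difference. Errors beside log2 differences are SE unless marked SD. The code was tested on simulated data. The number of arrays limits the precision.

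The members and gene lists were chosen with earlier results of these data known. Named are the 10 largest rises and 10 largest falls among called genes without overlap. From each list come up to 6 largest called members per direction, members called against its majority and members needed to account for it. Also named are the 5 genes with the smallest p in each direction of the second contrast that were called against the fibroblasts too. Outside this rule, and chosen after their values were seen, are ACVR2B, ASPN, CCNB1, CCNE1, CD24, COL3A1, COL6A3, CXCL8, FBN1, FOXD3, GAS6, HTRA1, IL6, LOX, LTBP2, NODAL, NR5A2, PMS2, TGFBI, TIMP1, TNC, WNT3, ZEB1 and ZEB2. Chromosomes came from a RefSeq gene table of the rhesus genome. Alternatives covered the samples fitted, weights, filter, normalization, probe set summary, threshold, replicate block and each array left out.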

Additional observations from a re-analysis of the deposited data

Results flagged for a closer look

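In 10 named genes ORMES23 differed from the mean of the other 5 pluripotent lines, as tested in 1 limma contrast with Benjamini-Hochberg adjustment. ORMES23 was lower for MAMU-AG (-2.69), XG (-1.49), MAMU-A (-1.43), GSTK1 (-1.30) and PEX7 (-1.09). It was higher for ST6GAL2 (2.13), PEG3 (1.29), ROR1 (1.15), CENPO (1.12) and DCBLD2 (1.10). MAMU-A was at 1.14 with probe sets averaged per gene, and PEX7 was at -0.93 without ORMES23 B and -0.85 without ORMES23 C. The calls of ST6GAL2, PEG3 and CENPO were also lost without 1 or more ORMES23 arrays, and that of DCBLD2 with probe sets averaged. For MAMU-AG, MAMU-A, XG, GSTK1, ROR1, CENPO and DCBLD2, CRES-1 was the line nearest to ORMES23. PEG3 stood near the fibroblast level in RiPS1 alone among the pluripotent lines.

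Probe sets without a single gene symbol also carried signal. Of 10951 such probe sets above the same filter, 3350 were called between ORMES23 and the fibroblasts in limma, 2162 higher and 1188 lower in ORMES23. They entered no gene list.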

How the results depend on the processing

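Against the fibroblasts, adjusted p alone gave 6876 genes (3610 higher and 3266 lower), and a 4-fold threshold gave 1357 (686 and 671). The other settings of samples, weights, trend, filter, scaling and probe set summary gave 3294 to 3700 genes, and leaving out 1 array gave 3476 to 3697. Centring each array on its median shifted the median gene from -0.01 to -0.06. With the replicate block 3573 genes were called, 3569 of them shared, and 20 in the second contrast. The letters did not pair the samples, since deviations of same-lettered arrays correlated at 0.01, 0.00 and -0.02. With arrays centred, the single alternative run for it, the X-linked count was 157, as reported. In the second contrast, array weights gave 109 genes (18 shared with the 21), adjusted p alone 72 and a 4-fold threshold 3, and leaving out 1 array gave 10 to 59. When probe sets were averaged per gene, COL5A2 was at -2.13, MAMU-A at 0.16 (1.14 in the second contrast), MFAP5 at -3.30 and NLGN4X at 0.19, each with its direction turned. Averaging mixes the opposed probe sets named above. DCBLD2 was at 0.83 there in the second contrast and lost its call. Over all alternatives, values of single named genes kept direction and call in 3861 cases, lost the call in 74, gained one in 16 and turned in 5. Signal near background limits genes under log2 5, for which folds are bounds.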
